A study of Elaeis guineensis with 12 samples.

Results

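In 60 gene models of the oil palm, Elaeis guineensis, RNA was higher in every library of mantled flowers than in every library of normal flowers, in both organs that were sampled. They were chosen by measured values, from 26087 gene models in all. Counts were scaled to 1000000 assigned reads per library (CPM), 13096 gene models had a mean of 5 CPM or more over the 12 libraries, 931 of these were left out because every normal carpel library exceeded every normal staminodia library, and 12165 were scored. The score was log2 of the lowest mantled CPM plus 1 over the highest normal CPM plus 1, and the 60 highest scores made up the set. Because the mantled against normal contrast chose the members, their levels in it are a description and carry no test.

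The libraries came from staminodia and carpel of clonal palms at stage 3 of floral development, cut out by laser capture from sections of frozen spikelets. There were 3 libraries in each of the 4 groups. The mantled libraries 1 to 3 are 1 palm each. The normal libraries cover 2 palms: replicates 1 and 2 are separate parts of a single inflorescence of normal palm 1, and replicate 3 is normal palm 2. Mantled and normal palms alike are labelled clonal plants, and no treatment is given. By the palm labels mantled palm 1 carries the prefix P291 and the other 2 mantled palms and both normal palms the prefix P273, so that prefix and phenotype overlap in part. Both organs of a palm have the same number, so mantled staminodia 1 and mantled carpel 1 are from 1 palm. Staminodia are stamens that stay sterile, here in female flowers.

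In a mantled flower, a variant that arises in tissue culture, the staminodia grow into extra carpel-like organs, the pseudocarpels. The change of a male organ into a carpel resembles what the loss of B-class MADS-box genes does to stamens in Arabidopsis and Antirrhinum, and in oil palm the trait is known to go with loss of DNA methylation at the Karma retrotransposon in the DEFICIENS gene. The carpel itself is present in both kinds of flower. With 3 mantled and 2 normal palms, differences between single palms and the phenotype cannot be told apart. The files pair no feature ID with a gene name, and 0 IDs matched the reference gene table, so the function of the members is not known here and the captured organs could not be checked against marker genes. IDs are therefore given for a few members only.

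Assigned reads ranged from 2121145 in mantled carpel 3 to 8066978 in mantled carpel 2. Gene models with at least 1 read numbered 14712 in normal carpel 3, the lowest, and 19735 in normal staminodia 1, the highest. The reads behind the 60 members added up to between 2396 in normal staminodia 3 and 19333 in mantled carpel 2. The reads were of 2 lengths and from 2 kinds of Illumina instrument, and which library had which is not given in the sources used here. In bulk tissue, fewer cells of a type and less RNA per cell cannot be told apart.

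The 60 members together stood at 2640, 2818 and 2475 CPM in the mantled staminodia of palms 1, 2 and 3, and at 2604, 2397 and 2243 CPM in mantled carpel. Normal staminodia held 1251, 1248 and 1113 CPM in replicates 1 to 3, and normal carpel 1280, 1265 and 1035 CPM. The mantled and normal sums do not overlap, which the rule fixes, since no member overlaps. The organs of a phenotype lay close to each other, and the lowest normal sum was that of normal carpel 3. Single members had a mean of 9.20 to 220 CPM over the mantled libraries, with a median of 30.2, and of 0.918 to 131 CPM over the normal libraries, with a median of 13.6. The ratio of these means, each plus 1 CPM, ran from 1.32 to 6.57 with a median of 2.27. It was at least 2 in 36 members and at least 4 in 8. The highest normal library of a member held 8 to 688 reads, so each member was also detected in normal flowers.

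**Figure D1:**
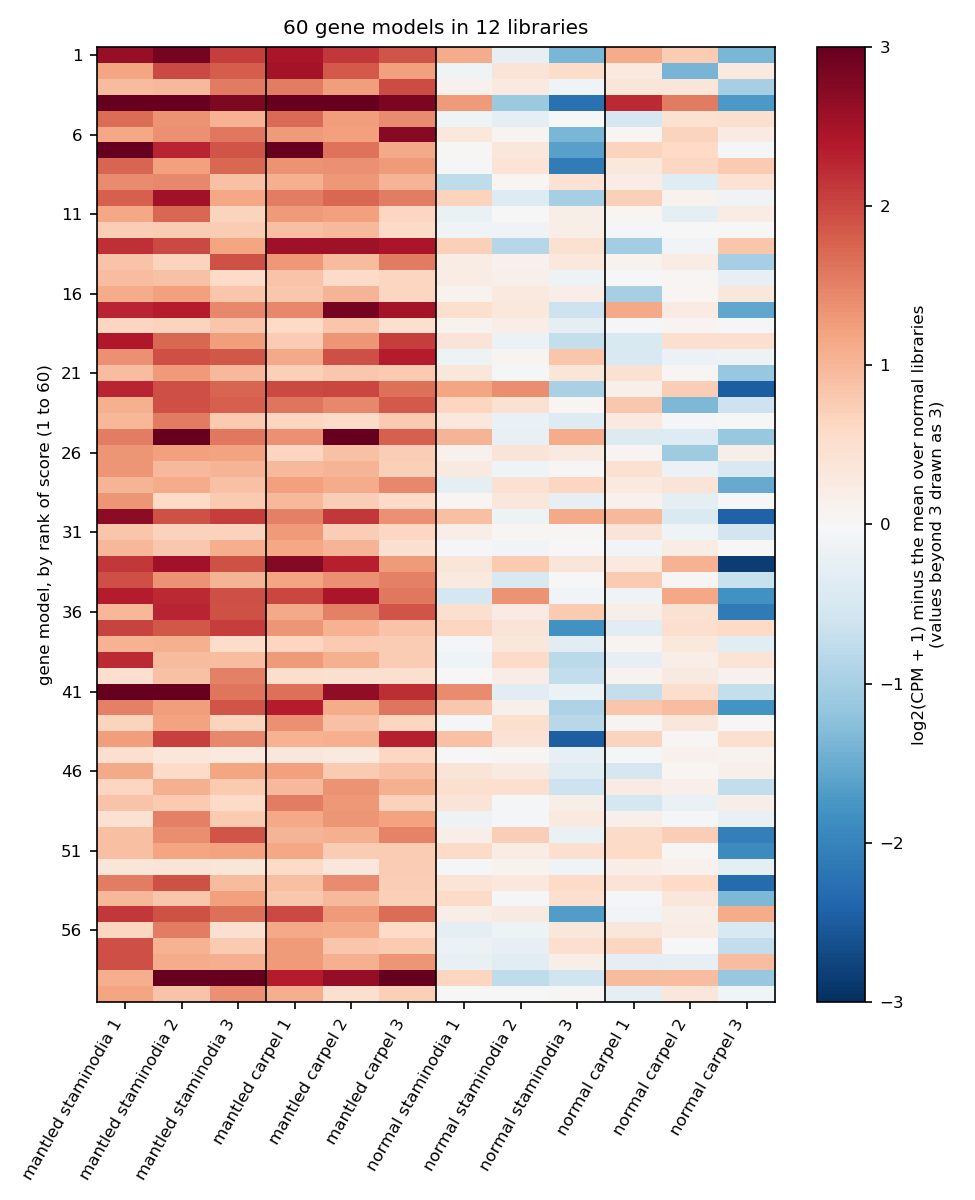
Each row is 1 of the 60 members in order of score, each column 1 of the 12 libraries, and the colour is log2(CPM + 1) minus the member's mean over the 6 normal libraries. The 6 mantled columns are red throughout because the rule asked for it, while normal carpel 3 holds many of the deepest blue cells; 13 values beyond 3 are drawn as 3.

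The highest score was 0.76, for p5_sc00023_cds_95. It stood at 14.7, 18.0 and 9.80 CPM in mantled staminodia 1 to 3 and at 13.1, 10.2 and 8.49 CPM in mantled carpel. In normal staminodia it stood at 4.61, 1.18 and 0 CPM and in normal carpel at 4.56, 3.39 and 0 CPM. Normal palm 2 gave no read of it in either organ, and the mantled libraries exceeded normal palm 1 as well. The palm mean was 14.2 CPM ± 4.11 (SD, n = 3) for mantled and 1.53 CPM ± 2.16 (SD, n = 2) for normal staminodia. In carpel it was 10.6 ± 2.35 and 1.93 ± 2.73 CPM.

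The next score, 0.64, belonged to p5_sc00026_cds_337, at 6.35, 11.7 and 10.3 CPM in mantled staminodia and 17.1, 10.5 and 6.60 CPM in mantled carpel. Its normal libraries held 1.94, 3.24 and 3.71 CPM in staminodia and 2.93, 0.226 and 2.98 CPM in carpel. Here the normal palms were alike in staminodia, and palm 1 was split between its replicates in carpel. Both members were near the low end in level: the lowest mantled library held 18 reads of the first and 19 of the second.

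The members with the highest levels had smaller ratios. augustus_masked-p5_sc00057-processed-gene-28.7-mRNA-1:cds stood at 181, 236 and 363 CPM in mantled staminodia and at 183, 178 and 178 CPM in mantled carpel. Its normal libraries held 128, 148 and 75.7 CPM in staminodia and 138, 155 and 140 CPM in carpel. The mantled carpels were within a few CPM of each other, while the staminodia varied between palms. Palm means were 260 ± 93.1 CPM (SD, n = 3) and 106 ± 43.4 CPM (SD, n = 2) for mantled and normal staminodia, and 180 ± 2.59 and 144 ± 5.63 CPM for the carpels.

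The other, maker-p5_sc00009-augustus-gene-54.39-mRNA-1:cds, was even across libraries. It stood at 159, 162 and 161 CPM in mantled staminodia, 177, 186 and 140 CPM in mantled carpel, 88.0, 88.2 and 109 CPM in normal staminodia and 92.7, 95.8 and 94.1 CPM in normal carpel. The groups do not overlap, as the rule requires. Palm means were 161 ± 1.45 CPM (SD, n = 3) and 98.4 ± 14.6 CPM (SD, n = 2) for mantled and normal staminodia, and 168 ± 24.0 and 94.3 ± 0.34 CPM for the carpels.

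**Figure D2:**
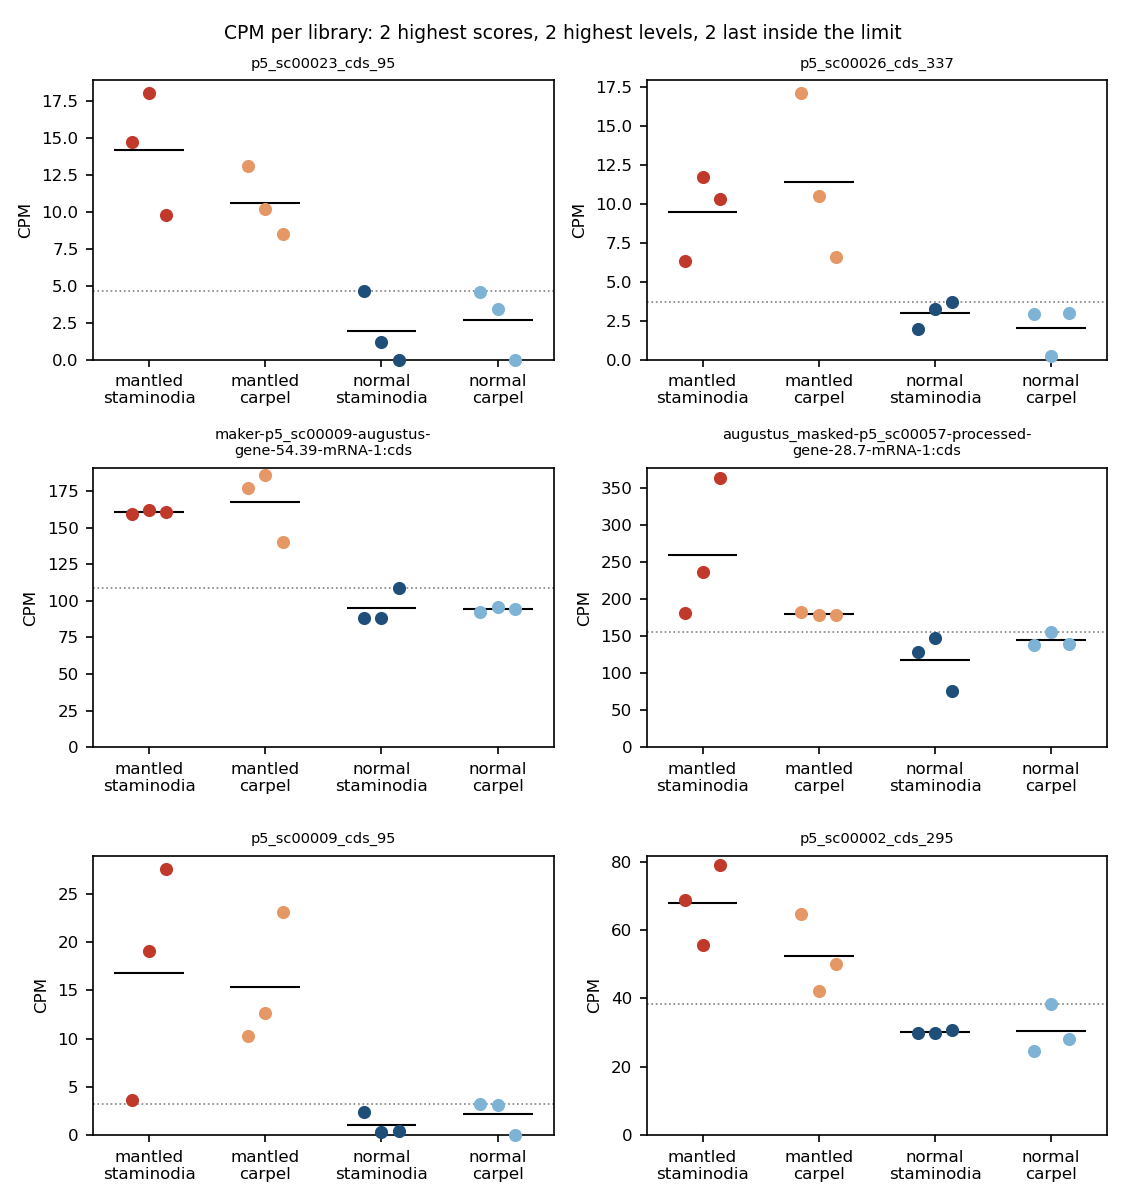
CPM per library (points, left to right replicates 1 to 3) with the mean of the 3 libraries (bar) for 6 members, with a dotted line at the highest normal library. In p5_sc00009_cds_95 the lowest mantled point, 3.67 CPM, lies just over the line, whereas in maker-p5_sc00009-augustus-gene-54.39-mRNA-1:cds the lowest is 140 against 109 CPM.

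The limit of 60 falls inside a continuous series of scores. The last members inside were p5_sc00009_cds_95 and p5_sc00002_cds_295, with scores of 0.136 and 0.135, and the first outside were maker-p5_sc00076-augustus-gene-20.48-mRNA-1:cds and maker-p5_sc00028-snap-gene-35.54-mRNA-1:cds, with scores of 0.135 and 0.134. The lowest mantled and highest normal levels were 3.67 and 3.25 CPM in the first, 42.3 and 38.4 CPM in the second, 63.2 and 57.5 CPM in the third and 112 and 102 CPM in the fourth. The score looks only at the gap, so a small gap can go with a large ratio of means. The member p5_sc00009_cds_95 had the largest ratio of means in the set, with 3.67, 19.1 and 27.6 CPM in mantled staminodia and 10.3, 12.6 and 23.1 CPM in mantled carpel against 2.42, 0.295 and 0.464 CPM in normal staminodia and 3.25, 3.16 and 0 CPM in normal carpel. Its mantled staminodia of palm 1, on 11 reads, was the library that set its rank.

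A score above 0, that is, no overlap between mantled and normal libraries, was found for 125 of the 12165 scored gene models (1.03%). Besides the 60 members 65 others had one. In the opposite direction 79 of the 13096 gene models with a mean of 5 CPM or more (0.603%) were higher in every normal than in every mantled library. Exact Poisson 95% intervals of the lowest mantled and of the highest normal library, which cover counting error only, were apart in 4 of the 60 members and overlapped in the others. These 4, named for this after their values were seen, were maker-p5_sc00009-augustus-gene-54.39-mRNA-1:cds, p5_sc00030_cds_312, maker-p5_sc00047-augustus-gene-32.18-mRNA-1:cds and p5_sc00284_cds_7. The score is made from the same libraries, so the count of 4 is a description and supports nothing. Its share over all scored gene models was not worked out. In the lowest mantled library of a member the reads numbered 11 to 456 with a median of 59.5, and 26 members had fewer than 50.

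Among these, p5_sc00030_cds_312 stood at 76.2, 60.5 and 48.7 CPM in mantled staminodia and 78.6, 57.3 and 63.6 CPM in mantled carpel. Its normal libraries held 21.1, 19.2 and 23.2 CPM in staminodia and 15.9, 32.5 and 32.8 CPM in carpel, so the highest normal library reached no mantled one. The member maker-p5_sc00047-augustus-gene-32.18-mRNA-1:cds stood at 162, 240 and 115 CPM in mantled staminodia and 178, 170 and 113 CPM in mantled carpel, with palm 3 lowest in both organs. Its normal libraries ran from 59.6 to 84.7 CPM. In p5_sc00284_cds_7 the mantled libraries ran from 115 to 148 CPM and the normal ones from 64.7 to 90.2 CPM.

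The 8 members with a ratio of at least 4 were of low level in normal flowers, at 0.918 to 7.68 CPM against 9.45 to 47.1 CPM in mantled flowers, and 6 of them had no read in some normal library. The 24 members with a ratio under 2 were more abundant, at a median of 25.8 CPM in normal and 43.0 CPM in mantled flowers, and 0 of these had a normal library without reads. The normal mean is part of the ratio, so a low normal level at a high ratio is in part built in. Over all 60 members the median of the mean CPM was 21.2, against 25.1 over the scored gene models. At a mean of 10 CPM or less there were 12 of 60 members, and 20.8% of the scored gene models.

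The same genes were compared between mantled and normal palms in each organ with edgeR, which summed libraries of 1 palm and organ and fitted all gene models. The median log2 fold change of the members, mantled over normal, was 1.20 in staminodia (range 0.36 to 3.86) and 1.29 in carpel (range 0.28 to 4.49), against medians over all tested gene models of 0.05 and 0.07. All 60 members passed edgeR's filter on low counts and were higher in both organs, as the rule requires. None of the 60 had an adjusted p under 0.05 in staminodia, where 3 of 15050 gene models did (0.0199%), or in carpel, where 0 of 16191 did (0.0%). An unadjusted p under 0.05 was found for 20 members in staminodia and 26 in carpel, where 1.97% and 1.98% of all tested gene models were higher at that p. The rule used this contrast, and nothing is read from these counts. DESeq2 called 2 members in staminodia, where it called 48 of 15050 gene models (0.319%), and 0 in carpel, where it called 4 of 16191 (0.0247%). Limma voom called 0 members in both, with 35 (0.233%) and 7 (0.0432%) gene models.

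Both members that DESeq2 called in staminodia were of low level in normal flowers. maker-p5_sc00113-augustus-gene-17.35-mRNA-1:cds stood at 66.8, 57.0 and 31.9 CPM in mantled staminodia and 47.7, 46.9 and 32.1 CPM in mantled carpel. Its normal libraries held 10.4, 1.18 and 0 CPM in staminodia and 21.2, 12.9 and 0.426 CPM in carpel. Normal palm 2 had 1 read or none, and normal palm 1 was lower in staminodia than in carpel. The log2 fold change was 3.74 (SE 0.938) in staminodia and 2.19 (SE 0.905) in carpel. These sizes rest on single normal libraries. In staminodia the value was 6.06 without normal replicate 1 and 2.94 without normal replicate 3. In carpel it was 1.30 without normal replicate 3. With normal palm 2 as the only normal palm the fitted values were 10.2 and 6.56, set against 1 read or none, and are no measure of size.

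The other, p5_sc00033_cds_527, named here after its values were seen, was high in mantled palm 1, at 60.5 CPM in staminodia and 59.1 CPM in carpel. Palms 2 and 3 held 21.1 and 15.8 CPM in staminodia and 12.9 and 8.96 CPM in carpel, and the normal libraries 0.464 to 6.18 CPM. Mantled palm 1 is the palm with the label prefix P291, while the mantled palms with the prefix P273 were above the normal palms by less.

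**Figure D3:**
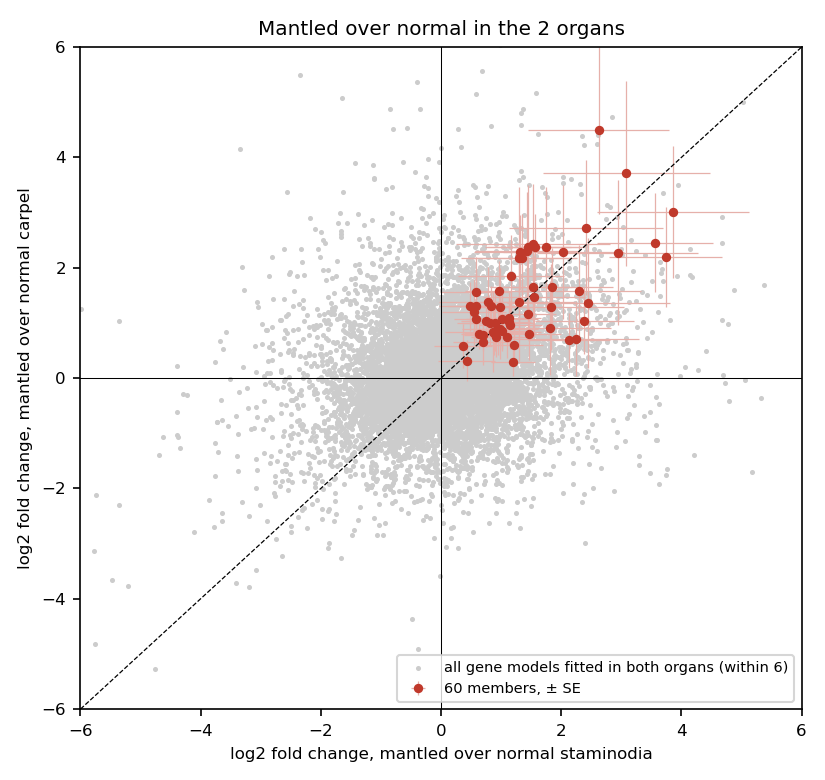
Log2 fold change, mantled over normal, in staminodia (x) and carpel (y), from edgeR; red points are the 60 members with their SE, grey points the 14693 gene models fitted in both organs, less 34 beyond 6 on either axis. The members all lie in the upper right quadrant, which the rule fixes, on both sides of the dashed line of equal change.

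The size of the difference in one organ did not carry over exactly to the other. The log2 fold change was larger in staminodia in 29 members and larger in carpel in 31, both values lay within 0.5 of each other in 29, and the widest gap was 1.86. The difference itself, the phenotype by organ interaction, was added after seeing the data and fitted with the palm as a block. The rule limits this difference, since it asked for higher mantled levels in both organs and left out gene models higher in normal carpel. The counts are therefore a description. The interaction had an adjusted p under 0.05 in 0 of 60 members in edgeR, and in 2 of 16800 gene models (0.0119%). An unadjusted p under 0.05 was found for 3 members and for 3.38% of gene models. Limma voom called 0 members and 0.0536% of gene models. DESeq2 gave no member an adjusted p here, so it made no call either way. The fitted differences of the members ran from -2.36 to 2.02 with a median of -0.06, where that of all gene models was -0.12. With 5 palms the interval of a single difference is wide: the SE was 2.02 for the top-scoring member.

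Whether a member differs between the organs of a mantled palm is a contrast the rule did not rank by. The score did use the same mantled libraries, and asking for a high level in both organs keeps strongly one-sided genes out. A lack of calls among the members is thus in part built in. At the low share of gene models called in all, 0 of 60 does not set the members apart. The contrast was tested with the palm as a block. In edgeR 0 of 60 members had an adjusted p under 0.05, where 25 of 16800 gene models did (0.149%), and 2 members had an unadjusted p under 0.05, where 4.96% of gene models did. Limma voom also called 0 members, and 0.321% of gene models. DESeq2 gave an adjusted p for 14 of the 60 members and called 0 of them, against 1.73% of the gene models with one, and the other members could not be called there. The log2 difference, staminodia over carpel, ran from -0.72 to 0.98 over the members. It was above 0 in 41 and below 0 in 19, with a median of 0.17, against 45.6% of all gene models above 0 and a median of -0.06. All gene models here include ones that the rule left out, under its CPM limit or higher in normal carpel. The 2 sets are therefore not alike.

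Within single mantled palms 34, 38 and 34 of the 60 members were higher in staminodia in palms 1, 2 and 3 (56.7%, 63.3% and 56.7%, against 46.1%, 47.7% and 49.1% of the scored gene models). The same direction in all 3 palms was found for 10 members with staminodia higher and 5 with carpel higher, or 16.7% and 8.33%, against 13.5% and 17.1% of the scored gene models. These shares describe the set and are not tested. The scored gene models lack those higher in normal carpel, as the members do.

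The smallest p values in this comparison with higher levels in staminodia belonged to augustus_masked-p5_sc00057-processed-gene-28.7-mRNA-1:cds and p5_sc00008_cds_64, neither of which passed the test. The first, whose values are given above, had a log2 difference of 0.51 (SE 0.199, adjusted p = 0.655 in edgeR), with staminodia higher in 2 of 3 palms. In p5_sc00008_cds_64 mantled staminodia held 53.5, 47.3 and 54.8 CPM and mantled carpel 32.2, 26.3 and 23.1 CPM, with staminodia higher in 3 of 3 palms. Its normal staminodia held 19.9, 16.5 and 2.79 CPM and its normal carpels 9.44, 17.8 and 19.2 CPM, where palm 1 and palm 2 went different ways. The difference in mantled palms was 0.98 (SE 0.462, adjusted p = 0.933 in edgeR).

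Towards carpel the smallest p values belonged to p5_sc00039_cds_134 and maker-p5_sc00006-augustus-gene-19.45-mRNA-1:cds. The former stood at 26.7, 23.0 and 12.8 CPM in mantled staminodia and 34.8, 34.8 and 32.5 CPM in mantled carpel, against 8.97, 2.36 and 7.43 CPM in normal staminodia and 1.95, 4.74 and 9.79 CPM in normal carpel. Its log2 difference was -0.72 (SE 0.573, adjusted p = 1 in edgeR). The latter stood at 38.4, 36.3 and 31.2 CPM in mantled staminodia and 62.4, 52.9 and 33.9 CPM in mantled carpel, against at most 27.6 CPM in the normal libraries, with a difference of -0.42 (SE 0.388, adjusted p = 1 in edgeR). Carpel was higher in 3 of 3 mantled palms in both members, and neither difference passed.

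**Figure D4:**
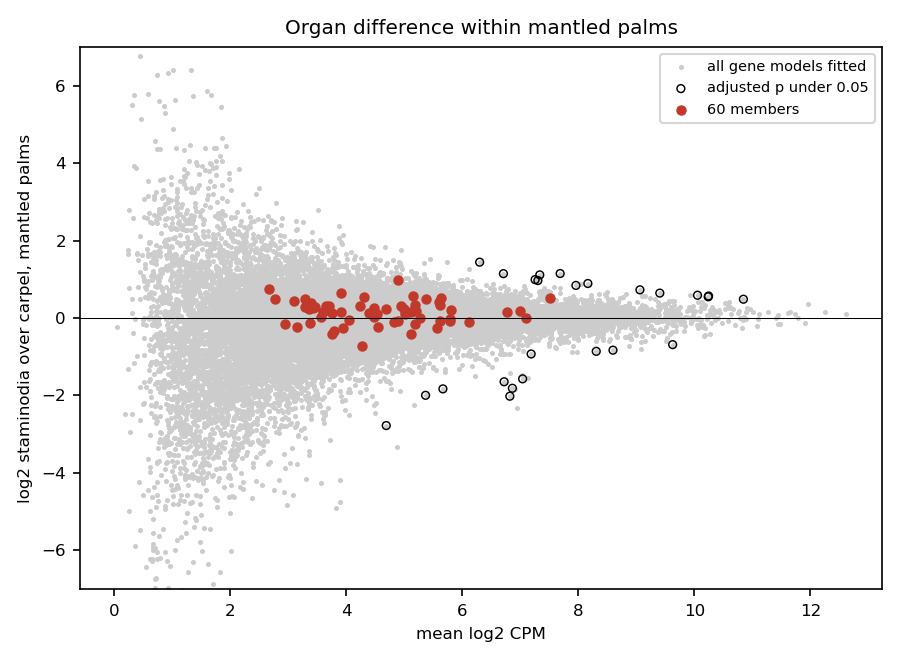
Log2 difference, staminodia over carpel in mantled palms, against mean log2 CPM, from edgeR with the palm as a block. Red points are the 60 members, between -0.72 and 0.98, grey points all gene models less 10 beyond 7, and open circles the 25 gene models with an adjusted p under 0.05, none of which is a member.

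In normal palms the members' log2 differences, staminodia over carpel, ran from -1.72 to 2.85 with a median of 0.20, 40 above 0 and 20 below. Of all tested gene models 52.2% were above 0, with a median of 0.04. In edgeR 0 of 60 had an adjusted p under 0.05, where 25 of 16800 gene models did (0.149%), and 2 members had an unadjusted p under 0.05, where 5.66% of gene models did. The rule left out gene models higher in normal carpel, so this contrast was used in part and is given as a description. Limma voom called 0 members and 0.661% of gene models, and DESeq2 called 0 of the 29 members with an adjusted p and 1.04% of such gene models.

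The mantled palms were compared among themselves. The same palm was highest in both organs in 27 of 60 members (45.0%, against 50.3% of the scored gene models): palm 1 in 10, palm 2 in 12 and palm 3 in 5. The same palm was lowest in both organs in 30 members (50%, against 49.0%): palm 1 in 9, palm 2 in 4 and palm 3 in 17. Palm 3 was thus more often the lowest and less often the highest of the 3 within the set, at 28.3% and 8.33%, where its shares among the scored gene models were 18.5% and 18.7%. This was not tested. Its carpel library was the shallowest of all, and was the lowest mantled one in 22 members. Its staminodia library was the lowest in 12 members, at 3980120 assigned reads, against 2993249 and 2560068 in the staminodia of palms 1 and 2. Each other mantled library was the lowest in 3 to 9 members. These counts have no share over the scored gene models to set beside them. The part of depth in this was not tested.

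The 6 mantled libraries of a member lay within 2-fold of each other in 33 of 60 members, on CPM plus 1, against 28% of the scored gene models, and the median log2 range was 0.983 against 1.46. A high lowest library is what the score rewards, so a narrow range is built into the set; among the other 65 gene models without overlap the median was 0.828. The narrowest and the widest member are named here after their values were seen. maker-p5_sc00079-augustus-gene-15.33-mRNA-1:cds, with a log2 range of 0.326, stood at 39.3 to 49.5 CPM in the mantled and 26.5 to 34.8 CPM in the normal libraries. p5_sc00038_cds_16, with a log2 range of 3.10, stood at 5.35, 46.9 and 5.53 CPM in mantled staminodia and at 4.60, 19.0 and 6.60 CPM in mantled carpel, against 0 to 3.71 CPM in the normal libraries. Its height came from both organs of mantled palm 2.

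Within the normal libraries the highest value, which bounds the score, fell on each of the 6 libraries in 8 to 14 members, most often on normal carpel 1. The lowest value was less evenly spread. It fell on normal carpel 3 in 26 members (43.3%, against 30.3% of the scored gene models) and on normal staminodia 3 in 17 (28.3%, against 24.9%). Normal carpel 3 also held no read of 10 members (16.7%, against 6.56% of the scored gene models), where normal carpel 1 and 2 lacked 1 and 0. This library had 2349579 assigned reads and the fewest gene models with a read, 14712. Normal staminodia 3, at 2153546 reads, held no read of 3 members (5.0%, against 3.78% of the scored gene models). Mantled carpel 3, at 2121145 reads, had 16721 gene models with a read. The part of depth and detection in the low values of normal palm 2 was not tested. Both members with the widest gap between normal palms show it. The first is maker-p5_sc00113-augustus-gene-17.35-mRNA-1:cds, described above, with normal palm 1 over palm 2 at 3.34 on a log2 scale of CPM plus 1. The second, maker-p5_sc00178-augustus-gene-11.21-mRNA-1:cds, held 11.6 and 13.6 CPM in the normal staminodia of palm 1 and 1.86 CPM in that of palm 2. In normal carpel it held 5.21 and 8.36 CPM against 0 CPM, and its mantled libraries held 16.5 to 26.4 CPM. Its gap between normal palms was 2.48. Without normal replicate 3, the only library pair of normal palm 2, the median log2 fold change of the members was 1.07 in staminodia and 1.11 in carpel.

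Many gene models are listed as numbered parts, which gives a reading within the gene. By the form of the IDs 32 members had more than 1 part, with 232 parts in all, of which 94 had a mean of 1 CPM or more. Of these 94, 83 had a higher mean in mantled libraries (88.3%, against 55.0% of 21308 such parts in the other scored gene models of more than 1 part). Without overlap between mantled and normal libraries were 20 parts (21.3%, against 0.39%). The parts are pieces of the sums that the rule used, so these shares describe where the difference lies and support nothing. In 23 of the 32 members every part of that level had the higher mean in mantled libraries. In 13 members no single part was free of overlap. The largest part of a member held 28.5% to 99.1% of its reads, with a median of 64.7%.

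At most 5 parts of a member reached that level. They did so in 6 members, of which p5_sc00008_cds_333 and p5_sc00008_cds_64 are described because their IDs sort first. The former as a whole stood at 53.5, 80.5 and 46.7 CPM in mantled staminodia and 42.0, 40.0 and 46.7 CPM in mantled carpel, against 33.4, 23.0 and 20.0 CPM in normal staminodia and 32.9, 25.3 and 26.8 CPM in normal carpel. Its largest part, p5_sc00008_cds_333.14, had a mean of 27.3 CPM in mantled and 18.1 CPM in normal libraries, and its range in mantled carpel, 17.4 to 25.6 CPM, overlapped that in normal carpel, 14.7 to 26.8 CPM. A smaller part, p5_sc00008_cds_333.8, reached 22.3 CPM in mantled staminodia 2 and 0 to 6.13 CPM elsewhere. The absence of overlap in p5_sc00008_cds_333 is thus a property of the sum and of no single part.

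In p5_sc00008_cds_64 the difference lay mostly in 1 part. Part p5_sc00008_cds_64.12 held 24.7, 31.6 and 33.4 CPM in mantled staminodia and 17.5, 15.2 and 18.4 CPM in mantled carpel, against 6.06, 7.37 and 0 CPM in normal staminodia and 0, 3.84 and 6.38 CPM in normal carpel. Its mean was 23.5 CPM in mantled and 3.94 CPM in normal libraries. The other 4 parts with a mean of 1 CPM or more overlapped, for instance p5_sc00008_cds_64.11 at means of 4.87 and 3.49 CPM. Whether the parts of a model belong to 1 transcript could not be checked without the annotation.

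**Figure D5:**
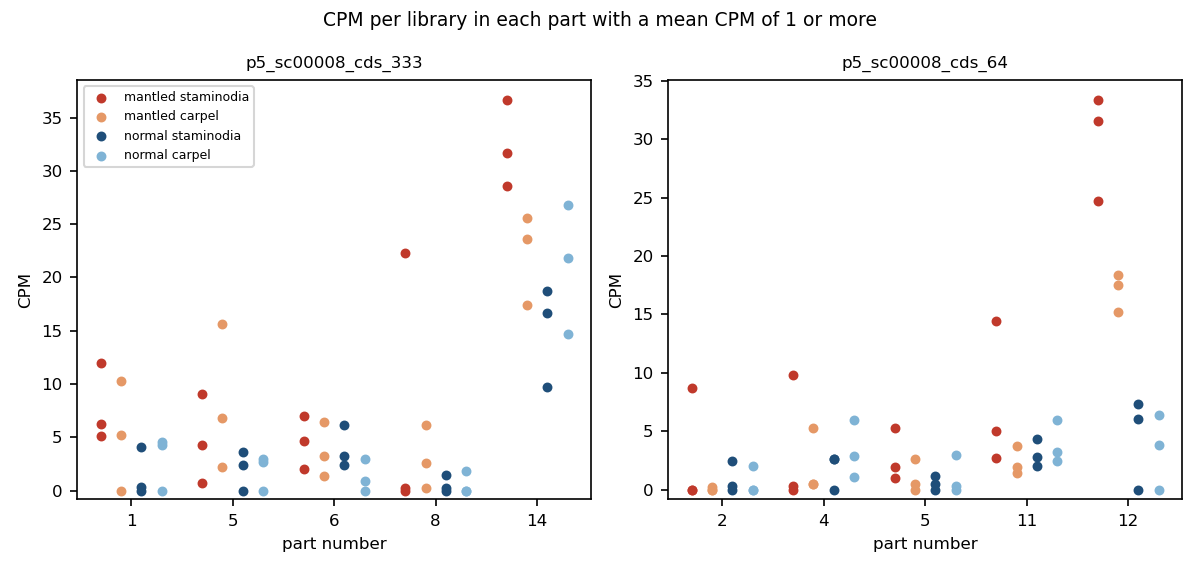
CPM per library in each part with a mean of 1 CPM or more, for 2 of the 6 members with the most such parts (5 each); colours give phenotype and organ. In p5_sc00008_cds_64 part 12 alone separates mantled libraries (15.2 to 33.4 CPM) from normal ones (0 to 7.37 CPM), and in p5_sc00008_cds_333 no part does.

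The spread over scaffolds was not compared with that of the other scored gene models. By position the members fell on 53 scaffolds, 6 of which held more than 1, and the most on a single scaffold was 3, on p5_sc00008. There the closest members were p5_sc00008_cds_333 and p5_sc00008_cds_378, 45 model numbers apart, and p5_sc00008_cds_64 was 269 from the former. p5_sc00008_cds_378 stood at 20.0, 13.7 and 19.8 CPM in mantled staminodia and 14.9, 15.1 and 14.1 CPM in mantled carpel, against 5.09, 7.37 and 0.464 CPM in normal staminodia and 6.83, 8.59 and 9.79 CPM in normal carpel. No pair of members with part-numbered IDs lay within 5 model numbers. Of the 38 scored gene models within 5 model numbers of such a member 0 were without overlap, against 1.03% of all scored gene models. At that share 0 of 38 does not set the neighbours apart. Of the neighbours 68.4% had a higher mean in mantled libraries, against 58.4% of all scored gene models. That model numbers follow position is assumed from the IDs. By type of ID, 35 of 60 members were of the part-numbered kind (58.3%, against 62.6% of the scored gene models) and 23 were maker models (38.3%, against 33.5%).

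Membership itself depends on each library. Leaving out mantled replicate 1, 2 or 3 from the rule kept 27, 27 and 13 of the 60 members among the 60 highest scores, and leaving out normal replicate 1, 2 or 3 kept 25, 26 and 16. With normal palm 2 as the only normal palm 4 were kept. With fewer libraries more gene models are without overlap, up to 730, and compete for the 60 places. Leaving out a library cannot bring overlap to a member, so the rule itself fixes that every member that is still scored keeps a score above 0. Between 35 and 60 members were still scored in these settings, since the minimum of 5 CPM and the comparison of normal organs are taken over the libraries left. The scaling mattered less: with TMM-normalised CPM 54 were kept, and 59 of the 60 members had a score above 0. In all, 87 gene models were then without overlap in place of 125.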

How the data were processed

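Each library has a deposited table of unnormalised counts, whole numbers of reads for every feature. RNA was captured by laser, depleted of ribosomal RNA and made into stranded libraries, per the labels' protocols. The submitters' processing notes name HTSeq 0.6.1p1, TopHat2 2.0.13, cutadapt, Trim Galore and CASAVA 1.8.2, with no roles. Neither the build and annotation nor the strand setting of the counting is given there, so overlapping and antisense genes may share reads. Rows for unassigned reads were dropped (assigned share 25.3% to 32.2%). Features whose IDs end in a part number were summed to gene models, and CPM are counts over library totals. Members and lists were chosen with earlier results of these data known.

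Sums per palm and organ were fitted over all gene models with edgeR 4.0.16 in R 4.3.3. The filter was filterByExpr (minimum count 10), scaling was TMM, dispersions were robust, and the quasi-likelihood test was adjusted by Benjamini-Hochberg. Organs were compared with the palm as a block. The pairing comes from the palm IDs, which both organs of a palm carry. Deviations from group means of the organs of 1 mantled palm correlated at 0.309 to 0.488 over gene models. In the normal palms the value was lower, at 0.164. Prior degrees of freedom had medians of 11 (staminodia), 8.19 (carpel) and 37.6 (joint fit), so p-values lean on spread shared over gene models. SEs were worked back from the F statistic. DESeq2 1.42.0 and limma 3.58.1 were alternatives. The steps were tested on simulated counts. IDs named are at most 2 per pattern and direction: the highest scores, levels and counts of parts, both sides of the limit, the smallest p between mantled organs, the widest gap between normal palms and the closest pairs on a scaffold. Exact Poisson intervals cover counting error only, as no molecular identifiers are named. No sequence of these gene models was used here.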

Additional observations from a re-analysis of the deposited data

How the results depend on the processing

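Limits: 3 mantled and 2 normal palms, reads as few as 11 behind a member's lowest mantled library, no gene names, and a choice of members on the contrast described. The rule fixes the sign of the members' mantled over normal fold changes, so only their size is given. In staminodia the median log2 fold change was 1.20 and ran from 1.07 to 1.28 over left-out replicates. In carpel it was 1.29 and ran from 1.11 to 1.24, with 1.66 without the pair of normal replicates 1 and 2 and 1.16 in limma voom. No member was called between mantled organs in any of 13 alternatives, with or without the replicate block, but in DESeq2 14 of the 60 had an adjusted p and the others could not be called. Of the 60 members 34 were kept when each model was represented by its highest scoring part, 38 with palm sums, 13 to 27 without 1 replicate, and 4 with normal palm 2 as the only normal palm.

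Counts of called gene models moved as follows, and the cause was not tested. Mantled against normal staminodia gave 3, but 48 in DESeq2, 35 in limma voom, 73 with no filter, 17 with each library as a replicate and 0 to 32 without 1 replicate (32 without normal replicate 3, 0 without mantled replicate 1). In carpel the count was 0, but 4 in DESeq2, 7 in limma voom, 24 with no filter and 0 to 5 without 1 replicate. Between mantled organs it was 25, but 88, 54, 74 and 9 in the same order of settings, 0 with no replicate block, 0 to 127 without 1 replicate and 62 without the normal pair. Between normal organs it was 25, but 73, 111, 72 and 68, 1 with no replicate block, 5 to 72 without 1 replicate and 897 without the normal pair, where 1 normal palm is assumed to vary like the mantled ones. In that last setting 5 members were called between normal organs, where 5.04% of gene models were, and 4 for the interaction, where 499 of 17811 gene models were (2.8%). With both normal palms kept, 2 members were called in mantled against normal staminodia with no filter (0.331% of gene models) and 1 without normal replicate 1 (0.0332%). The rule used that contrast, so nothing is read from these member counts.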
